A study of Homo sapiens with 2 samples.

Results

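The genes described here are 9 members of the plasminogen activation and coagulation systems of the cell surface: the plasminogen activators PLAU and PLAT, the activator receptor PLAUR, the inhibitors SERPINE2 and SERPINB2, the coagulation receptors F3 and THBD, and the protease-activated receptors F2R and F2RL1. Members were taken as all probe sets of the array whose annotated symbol is 1 of these names. This gave 14 of the 54675 probe sets and 7 of the 9 genes, among 19775 named genes in all. No probe set with 1 symbol carries the name SERPINB2 or F2RL1 in the annotation used here, so these genes have no value below. This does not show that the array lacks probes for them. Of the 7 genes, 4 reached log2 6 in at least 1 line, the level taken as the minimum for counting a gene as measured above background.

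Expression was measured with Affymetrix Human Genome U133 Plus 2.0 arrays in 2 related human melanoma cell lines. IGR39 was derived from a primary tumour of the skin labelled achromic, meaning without pigment. IGR37 was derived from a lymph node metastasis. Both lines were cultured alike in DMEM with serum, no treatment is named, and neither a genotype nor a passage number is given in the sources used here. Each line stands on 1 array. There is therefore no replicate, no test was possible, and every difference below is a measured difference between 2 arrays with no error between cultures. Line and array cannot be told apart, nor can fewer cells expressing a gene and less RNA per cell.

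Urokinase (PLAU) and tissue plasminogen activator (PLAT) are serine proteases that cut plasminogen into plasmin, which degrades fibrin and other matrix. PLAUR is a receptor anchored in the membrane by a lipid that binds urokinase and concentrates plasmin formation at the cell edge, and serpins such as SERPINE2 and SERPINB2 trap the proteases in inactive complexes. On the coagulation side, tissue factor (F3) binds factor VIIa and starts thrombin formation, thrombomodulin (THBD) turns thrombin towards protein C, and F2R and F2RL1 are G protein-coupled receptors switched on when proteases cut their outer end. Tissue factor and the urokinase receptor have long been studied in melanoma for their part in invasion and spread.

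The labelled cell type was checked first. In IGR37, all 7 melanocyte-lineage markers with a value lay between 8.38 and 13.05 on the log2 scale. In IGR39, MITF stood at 7.57, and the other markers lay below the minimum: TYRP1 at 3.15, MLANA at 3.33, S100B at 3.74, SOX10 at 4.10, TYR at 4.22 and PMEL at 4.29. The defining pigment-cell markers other than MITF were thus near background in IGR39. Several members are also expressed in endothelium and platelets, so markers of these cells were examined. None of the 6 endothelial markers reached the minimum, and their levels ran from 2.76 to 4.98 (IGR39) and from 3.11 to 4.81 (IGR37). The 5 platelet markers lay between 3.03 and 5.38, and the 7 macrophage and lymphocyte markers between 3.20 and 4.33. Among 5 fibroblast markers, COL1A2 stood at 6.27 in IGR39 and 3.84 in IGR37, LUM at 3.41 and 6.26, and COL1A1 at 5.87 and 6.15, while DCN, at 4.57 and 4.38, and PDGFRB, at 3.81 and 3.64, were below the minimum. Of 4 keratinocyte markers, KRT10 alone reached the minimum, at 9.13 and 9.08. The part of these levels in the results below was not tested.

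Of the 4 members above the minimum, 3 were at least 2-fold lower in IGR37 than in IGR39 and 0 were at least 2-fold higher. Over all 8501 genes above the minimum, 9.5% passed the lower 2-fold limit and 11.4% the upper one, which is 808 and 973 genes. Centring on housekeeping genes, which lowers every difference by 0.19, turned this split into 1055 and 733 genes and left the members' counts as they were. The 3 lower members were F3, PLAUR and SERPINE2, and the remaining one was PLAT, which was higher in IGR37 by less than 2-fold. The median difference of the 4 was -2.18 on the log2 scale, IGR37 minus IGR39, against 0.07 over all genes at this level. A gene can pass the minimum through its brighter line alone, so these 4 do not stand for all members. Over the 7 members at any level the median difference was -0.08, against 0.0025 over all 19775 genes. By probe set, 6 of the 14 reached the minimum, and 5 of those 6 were at least 2-fold lower in IGR37, against 9.71% of 13158 named probe sets, while 0 were at least 2-fold higher, against 12%. The 3 PLAUR probe sets among them share a gene and are not independent. The members were chosen with earlier results of these data known. The shares over all genes and probe sets are therefore given for scale only, and no excess among the members is read from them.

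**Figure D1:**
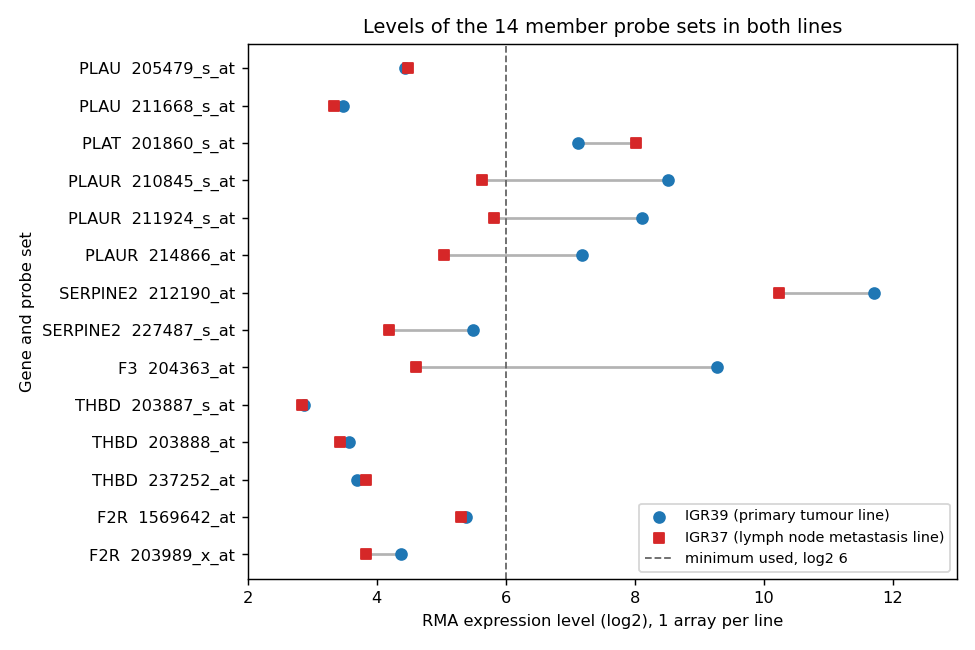
RMA expression level on the log2 scale (x axis) of the 14 member probe sets (y axis) in IGR39 (circles) and IGR37 (squares), 1 array per line, with the minimum of log2 6 as a dashed line. F3 and the 3 PLAUR probe sets cross the dashed line between the lines of cells, SERPINE2 212190_at and PLAT lie above it in both, and all probe sets of PLAU, THBD and F2R lie below it.

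Tissue factor was among the members lower in IGR37. The only F3 probe set, 204363_at, stood at 9.27 in IGR39 and at 4.61 in IGR37. The IGR37 level lies near the median of all probe sets on that array, 4.14, and below the minimum. The difference was -4.66, which is 25.2-fold on the scale of RMA values, a ratio that rests on an IGR37 level near background. The difference therefore has no firm size, and no rank is drawn from it. At the wider limit of 4-fold, 2 of the 4 members, F3 and PLAUR, were lower and 0 were higher, where 4.11% and 3.71% of all genes were. Both F3 and PLAUR passed the minimum through IGR39 alone, so this count adds nothing to their levels. The genes whose pair of levels lay nearest to that of F3, by Euclidean distance over the 2 arrays, were ID1, at 9.35 and 4.55, and KRT18, at 9.33 and 4.46.

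Promoter windows are shown for the 3 members that were lower together, since they let the regulatory letters of these genes be compared. The windows hold the 250 bases before a start of transcription and come from RefSeq with build GRCh38.p14. A search on both strands covered 8 short motifs: AP-1 as TGANTCA, TEAD as GGAATG, SP1 as GGGCGG, NF-kB as GGANTTTCC, CRE as TGACGTNA, the E-box as CACGTG, the M-box as CATGTG and TATA as TATAAA. Capitals mark every match, and none of the matches overlapped another in the windows shown. The F3 window lies at chr1:94541760-94542009 on the minus strand.
F3: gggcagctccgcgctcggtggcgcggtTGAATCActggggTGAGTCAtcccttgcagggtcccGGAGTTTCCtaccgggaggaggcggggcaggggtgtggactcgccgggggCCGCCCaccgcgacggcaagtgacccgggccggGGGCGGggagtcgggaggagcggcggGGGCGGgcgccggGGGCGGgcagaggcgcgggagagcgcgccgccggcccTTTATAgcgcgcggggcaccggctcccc

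The F3 window held 2 AP-1 matches, with first bases at positions -223 and -210 counted from the start, and 1 NF-kB match at -187. It also held 4 SP1 matches and a TATA match on the opposite strand at -28. An AP-1 match occurs in 6.57% of 35116 promoter windows of this length, an NF-kB match in 1.45%, an SP1 match in 42.6% and a TATA match in 10.7%. A match describes letters and shows neither binding nor use of the site. The GC content of this window was 78%, against a median of 58% over all windows.

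PLAUR, the urokinase receptor, was lower in IGR37 on every probe set. The probe set 210845_s_at stood at 8.51 in IGR39 and 5.63 in IGR37, so that IGR37 differed by -2.88. The probe set 211924_s_at stood at 8.12 and 5.82, a difference of -2.30, and 214866_at at 7.18 and 5.05, a difference of -2.13. All 3 were above the minimum in IGR39 and below it in IGR37. Their differences spanned 0.75, which is a range. The pooled SD of differences between probe sets of a gene was 0.40 over 3178 genes. A range and an SD are unlike measures, so these values do not show whether the PLAUR probe sets differ more than usual. All 3 had the same direction. These differences, too, are set against IGR37 levels not above the minimum, so their size is not firm. The nearest genes in the pair of levels were DNMBP, at 8.56 and 5.68, and RNF24, at 8.62 and 5.79. Both were picked for this nearness, so their likeness in level to 210845_s_at was given by the choice.

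The PLAUR window, shown to set beside that of F3, lies at chr19:43670170-43670419 on the minus strand.
PLAUR: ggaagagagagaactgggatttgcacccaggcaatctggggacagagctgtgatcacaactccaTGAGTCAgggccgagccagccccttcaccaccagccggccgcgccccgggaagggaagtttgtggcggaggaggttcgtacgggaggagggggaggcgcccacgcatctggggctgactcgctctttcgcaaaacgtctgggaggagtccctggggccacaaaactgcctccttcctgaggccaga
It held 1 AP-1 match, with its first base at -186, and no match to the other motifs searched. Its GC content was 63.2%. The AP-1 match of PLAUR and the second AP-1 match of F3 carry the same letters, TGAGTCA. The pattern searched fixes every letter but 1, so this likeness was largely given by the search.

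SERPINE2 encodes protease nexin-1, a serpin that inhibits thrombin, urokinase and plasmin at cell surfaces. The probe set 212190_at stood at 11.71 in IGR39 and 10.24 in IGR37, above the minimum in both lines, with a difference of -1.47. The dimmer probe set 227487_s_at stood at 5.49 and 4.19, a difference of -1.30, below the minimum in both. The differences given by the 2 probe sets lay within 0.17 of each other. Unlike F3 and PLAUR, whose IGR37 level was below the minimum, the SERPINE2 difference is one between levels that are both above it. Of the 8501 genes, 510 (6%) were as low or lower. HLA-C, at 11.72 and 10.15, and MYL6, at 11.46 and 10.35, were nearest in the pair of levels.

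RefSeq gives 2 starts for SERPINE2 in the promoter table. The upstream window lies at chr2:224038641-224038890 and the downstream one at chr2:224031479-224031728, both on the minus strand.
SERPINE2 start 1: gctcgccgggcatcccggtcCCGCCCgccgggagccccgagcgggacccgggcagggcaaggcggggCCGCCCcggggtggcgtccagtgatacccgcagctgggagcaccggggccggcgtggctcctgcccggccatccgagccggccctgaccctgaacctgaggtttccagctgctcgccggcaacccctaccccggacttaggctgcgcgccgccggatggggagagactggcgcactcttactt
SERPINE2 start 2: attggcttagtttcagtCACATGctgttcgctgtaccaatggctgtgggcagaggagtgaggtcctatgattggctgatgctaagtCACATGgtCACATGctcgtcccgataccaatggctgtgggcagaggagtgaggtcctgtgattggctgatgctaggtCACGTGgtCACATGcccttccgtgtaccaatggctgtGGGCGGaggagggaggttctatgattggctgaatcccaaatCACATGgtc
The upstream window held 2 SP1 matches and had a GC content of 75.2%. The downstream window held 5 M-box matches, 1 E-box match and 1 SP1 match, with a GC content of 53.2%. This window repeats a stretch of letters, tgattggctgatgcta among them, in exact and altered copies. The M-box and E-box matches lie in or beside these copies, so they are not independent of each other. An M-box match occurs in 9.42% of all windows and an E-box match in 6.34%. Neither SERPINE2 window held an AP-1 match. Which start is used in these lines cannot be read from the arrays.

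**Figure D2:**
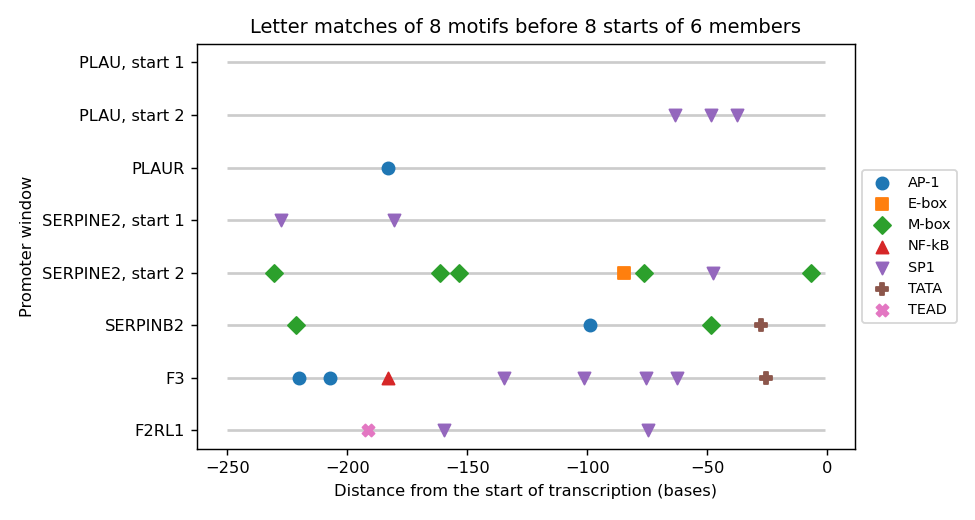
Positions of letter matches to the motifs searched (symbols) in the 250 bases before 8 starts of the 6 members with a window in the table (y axis), as distance from the start in bases (x axis). AP-1 matches lie in the windows of PLAUR, SERPINB2 and F3, and M-box matches lie in those of SERPINB2 and the second SERPINE2 start.

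Among all 8 windows of 6 members, AP-1 matches lay in 3, SP1 matches in 5, M-box and TATA matches in 2 each, and TEAD, NF-kB and E-box matches in 1 each. No window held the CRE letters, which 2.67% of all windows hold, and TEAD letters occur in 11.9%. SERPINB2, which has no value here, held an AP-1 match at -102, M-box matches at -224 and -51 and a TATA match at -30. The first PLAU window held no match and the second held 3 SP1 matches. PLAT, THBD and F2R are not shown.

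PLAT was the member that went the other way. Its only probe set, 201860_s_at, stood at 7.12 in IGR39 and 8.03 in IGR37. The difference of 0.90, or 1.87-fold on the RMA scale, was below the 2-fold limit. After centring on housekeeping genes it was 0.72. The 24 poly-A spike-in probe sets, which are added before labelling and carry technical differences only, had a median of 0.25 and ranged from -0.47 to 0.68. Of the 8501 genes, 1157 (13.6%) were as high or higher, so a difference of this size was common between these arrays. RAB29, at 7.13 and 8.02, and CUL4A, at 7.09 and 8.01, were nearest in the pair of levels.

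PLAU, which makes the ligand of PLAUR, was not above the minimum in either line. The probe set 205479_s_at stood at 4.44 in IGR39 and 4.49 in IGR37, and 211668_s_at at 3.47 and 3.35. The medians of all probe sets were 4.17 and 4.14, so both PLAU probe sets lay around the middle of the arrays or lower. In IGR39 the receptor was thus above the minimum on all its probe sets and its protease on none. Probe sets that do not reach the minimum place no firm bound on the transcript, and no fold is drawn from them.

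THBD and F2R were also below the minimum in both lines. The 3 THBD probe sets stood at 2.88, 3.56 and 3.70 in IGR39 and at 2.84, 3.44 and 3.84 in IGR37, in the order 203887_s_at, 203888_at and 237252_at. The first of these lies close to the lowest 1% of all probe sets, whose upper edge was 2.78 on each array. F2R, the thrombin receptor PAR1, stood at 5.39 in IGR39 and 5.31 in IGR37 on 1569642_at. On 203989_x_at, a probe set whose suffix marks probes that can match other sequences, it stood at 4.37 and 3.83. The differences of PLAU, THBD and F2R ran from -0.54 to 0.14 over their 7 probe sets, and none reached 2-fold.

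**Figure D3:**
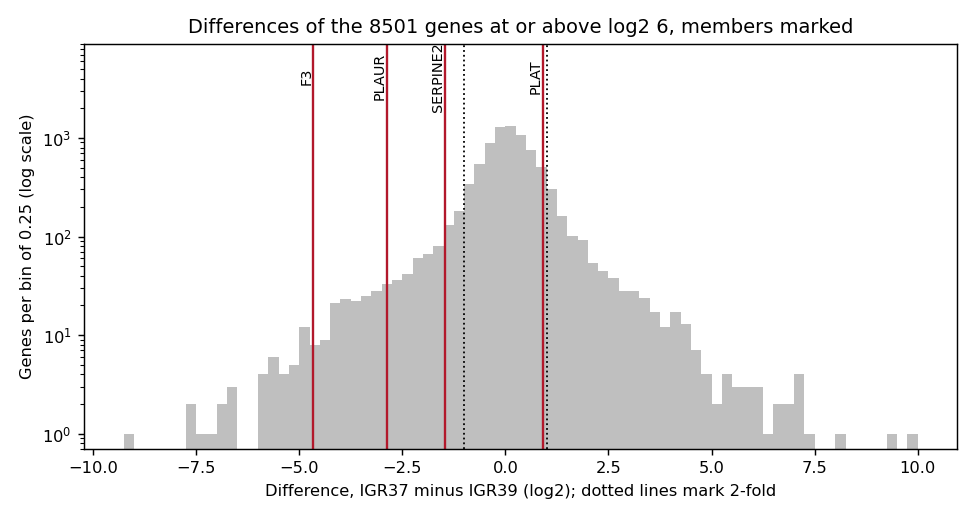
Distribution of the difference IGR37 minus IGR39 on the log2 scale (x axis) over the 8501 genes at or above log2 6, as genes per bin of 0.25 on a log axis (y axis), with the 4 members at that level as vertical lines and the 2-fold limits dotted. F3 at -4.66 and PLAUR at -2.88 lie in the lower tail, SERPINE2 at -1.47 lies past the lower limit, and PLAT at 0.90 lies inside the upper limit.

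The other genes of these pathways were described from 6 lists that together hold 84 genes, of which 79 had a value and 30 reached the minimum. Of the 30, 3 were at least 2-fold lower in IGR37, 3 were at least 2-fold higher, and 24 lay within 2-fold, as did 79% of all genes. Their median difference was -0.11, and 0.07 over all genes. The share within 2-fold was close to that of all genes.

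On the plasminogen side, 8 of 12 genes with a value reached the minimum, with 0 lower and 1 higher. The surface receptor for plasminogen formed by annexin A2 and S100A10 was bright in both lines: ANXA2 stood at 13.21 in IGR39 and 12.21 in IGR37, just short of the 2-fold limit, and S100A10 at 12.32 and 11.57. ANXA2 passed that limit after removal of a level-dependent trend (-1.17) and after centring on housekeeping genes (-1.19). Its 3 probe sets at the minimum ranged from -1.18 to -0.9997 without rescaling, so the count of 0 lower rests on the probe set used. The 2 S100A10 probe sets differed by -1.82 and -0.75. IGF2R, which also binds PLAUR, was the 1 higher gene, at 7.79 and 8.90, with a difference of 1.12 that was 0.93 after centring on housekeeping genes. The clearance receptor LRP1, which takes up complexes of urokinase with its inhibitors, stood at 6.32 and 6.47. Of the other inhibitors, A2M, a broad protease trap, was the 1 of 6 that reached the minimum, at 3.85 and 7.19. Its IGR39 level was below the minimum, so the difference of 3.34 has no firm size.

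Among 23 coagulation factors and inhibitors, all had a value and 6 reached the minimum, with 1 lower and 1 higher. TFPI2, an inhibitor related to the tissue factor pathway inhibitor, stood at 8.18 in IGR39 and 6.85 in IGR37, differing by -1.33. PROS1, the cofactor of activated protein C, stood at 6.17 and 8.53, a difference of 2.35 on its single probe set, which its near-identical pseudogene copy could share. F8 stood at 6.76 and 5.96. VKORC1 and GGCX, enzymes that prepare vitamin K-dependent factors, stood at 9.84 and 10.02 and at 7.92 and 8.44.

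The receptors F2RL2 and F2RL3, close relatives of F2R, did not reach the minimum. Of the coupling proteins listed with them, the 9 that reached the minimum were within 2-fold, with a median of -0.56. Below the minimum in both lines, PLCB1 stood at 5.20 in IGR39 and 3.68 in IGR37 and PLCB4 at 4.95 and 3.81. Thus 2 genes of the list passed the lower limit when no minimum was set and 1 at a minimum of log2 5. With no minimum, the plasminogen and inhibitor lists each had 0 genes past the lower limit and 2 past the upper one. The coagulation and protease lists each had 1 and 1, and the LY6/uPAR list described below had 2 and 0. With no minimum, 960 of all 19775 genes passed the lower limit and 1146 the upper one. At a minimum of log2 5, 923 and 1103 of 10833 genes did. Below the minimum in both lines, VLDLR, CPB2 and KLK6 passed the upper limit and LYPD6B the lower one. GNA11 stood at 8.99 and 8.12, GNAQ at 9.24 and 8.48 and GNA12 at 8.98 and 8.22. Centring on housekeeping genes carried GNA11 past the limit, to -1.06. Among the proteases that cut these receptors, MMP1, a collagenase that can cut F2R, stood at 12.45 in IGR39 and 3.21 in IGR37, where it was below the minimum. ST14, which encodes matriptase and cuts F2RL1, stood at 5.95 and 6.15.

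PLAUR belongs to the LY6/uPAR domain family, of which 14 other genes were measured and 4 reached the minimum. LYPD1 was the 1 lower gene, at 8.80 in IGR39 and 5.79 in IGR37, which gives -3.01 on 1 probe set, against an IGR37 level below the minimum. LYPD6 stood at 6.88 and 6.17 and LY6E at 8.36 and 8.58. The complement inhibitor CD59 stood at 10.43 and 10.29 on its brightest probe set, and its 4 probe sets at this level ranged from -0.15 to 1.21. In the serpin family, 4 of 31 genes reached the minimum, SERPINE2 included. SERPINH1, a collagen chaperone with no inhibitory role, stood at 9.16 and 6.98, a difference of -2.18. SERPINF1 stood at 4.95 and 6.26, and SERPINB1 at 7.69 and 7.78.

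**Figure D4:**
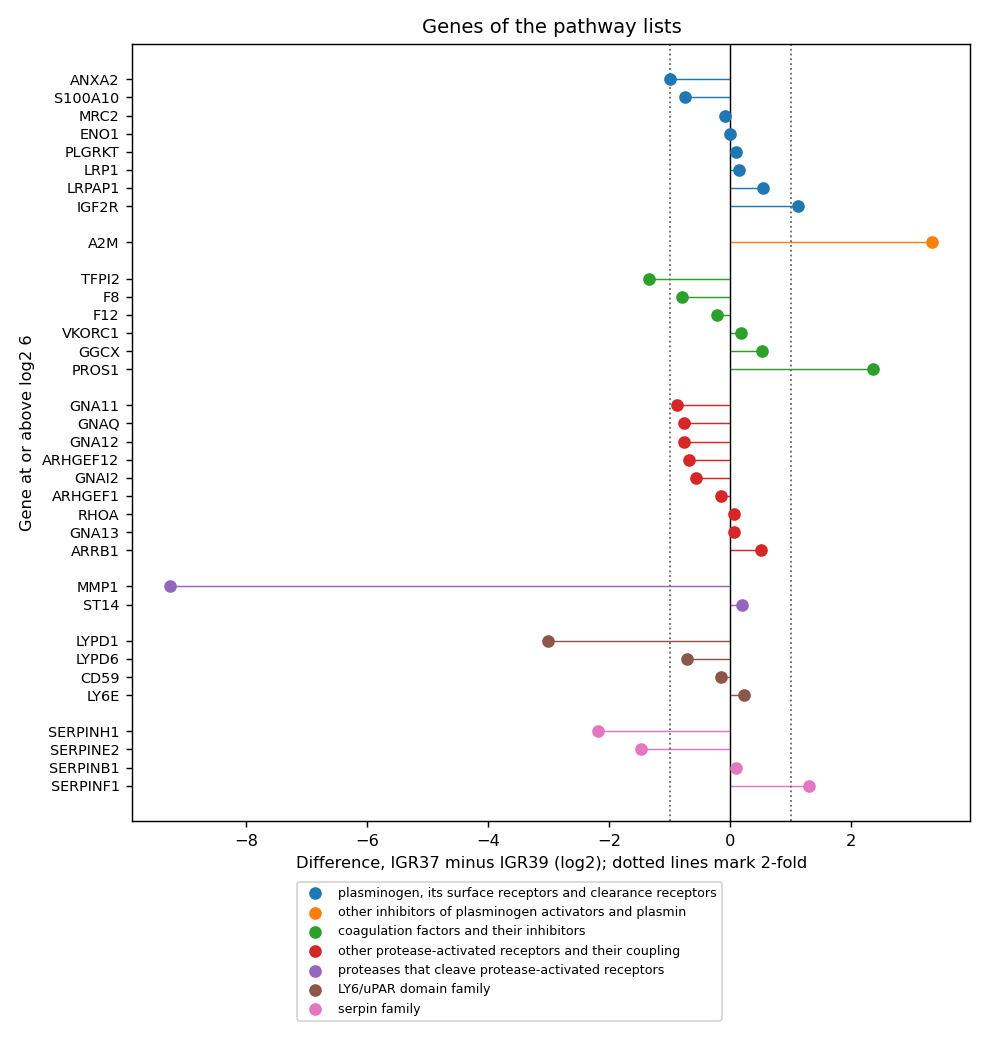
Difference IGR37 minus IGR39 on the log2 scale (x axis) of the genes of the 6 pathway lists and of the serpin family that reached log2 6 (y axis), coloured by list, with the 2-fold limits dotted. MMP1, LYPD1, A2M, SERPINF1, F8 and ST14 were below the minimum in 1 line, and the coupling proteins shown all lie within 2-fold.

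The chromosomal neighbours of the members were read from the gene order of the RefSeq table (GRCh38.p14). The neighbours of F3 were ABCD3, at 8.55 in IGR39 and 8.97 in IGR37, and SLC44A3, which was below the minimum. Those of PLAUR, CADM4 and IRGC, were below it in both lines. SERPINE2 lies between MRPL44, at 7.12 and 8.23, and FAM124B, which was below the minimum. None of the neighbours of these 3 genes was at least 2-fold lower, and MRPL44 was higher by 1.11. PLAU itself was below the minimum, while its neighbours CAMK2G and VCL were lower in IGR37, at 6.98 and 5.77 and at 11.04 and 8.31. PLAT lies between AP3M2, at 7.45 and 7.85, and IKBKB, at 7.20 and 6.81. F2R lies beside F2RL2, F2RL1 is followed by S100Z, SERPINB2 lies between SERPINB7 and SERPINB10, and THBD between SSTR4 and CD93. These neighbours were all below the minimum in both lines.

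**Figure D5:**
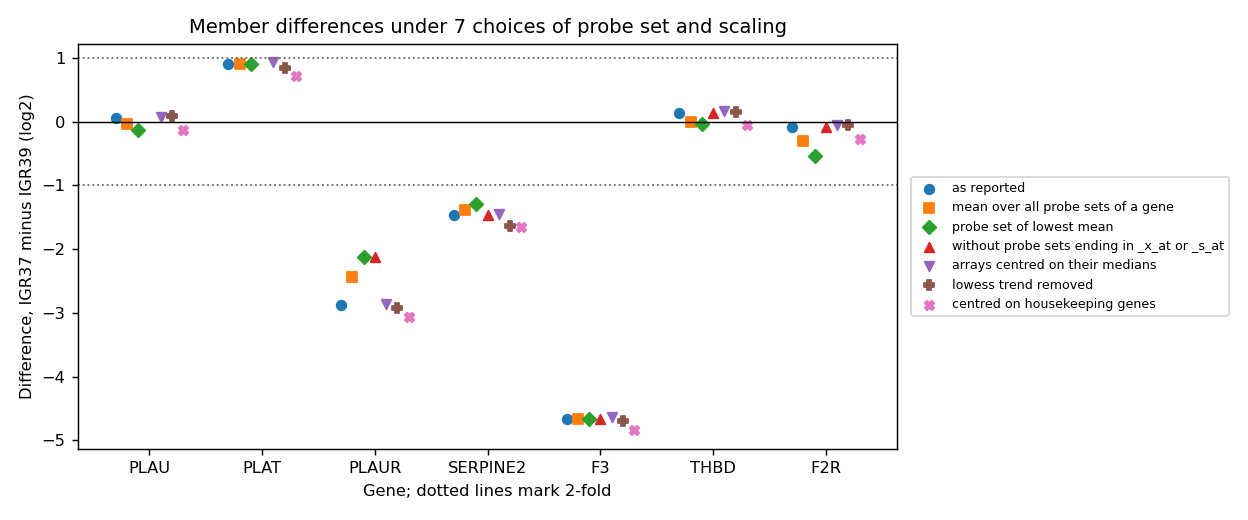
Difference IGR37 minus IGR39 on the log2 scale (y axis) of the 7 members with a value (x axis) as reported and under 6 other choices of probe set or scaling (symbols), with the 2-fold limits dotted. F3, PLAUR and SERPINE2 lie below the lower limit under all of these choices, PLAT stays between 0.72 and 0.93, and PLAU, THBD and F2R stay within 2-fold. PLAT and PLAU have no value where probe sets ending in _x_at or _s_at were removed. F3 and PLAT have a single probe set, so only the scalings can move them.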

How the data were processed

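Total RNA of IGR39 and IGR37 was extracted with TRIzol, biotin-labelled and hybridised to 1 array per line, per the labels' protocols. The authors deposited log2 values per probe set, made with RMA in affy per the submitters' processing notes. No version, and no list of the arrays normalised together, was given in the labels used here. RMA equalises the distributions of arrays and compresses differences between low levels.

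Gene names came from the annotation of the platform, updated through gene identifiers to RefSeq (GRCh38.p14). 41091 had 1 symbol, and 1801 with several were left out. For each gene the probe set of highest mean over both arrays was used, except where every probe set is given. Named genes were all members at every probe set; from each pathway list, genes past 2-fold and the 3 largest differences at the minimum, the 2 genes nearest each member in its pair of levels; and its nearest measured neighbours. LRP1, VKORC1, GGCX, CD59, SERPINB1, PLCB1, PLCB4, VLDLR, CPB2, KLK6 and LYPD6B were named after their values were seen.

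The members and lists were chosen with earlier results of these data known. With 1 array per line no test was run, and precision is limited by that number. The calculation was tested on simulated data. There were 9 alternatives. Python 3.11.15, numpy 2.4.6, pandas 2.3.3, statsmodels 0.14.6 and matplotlib 3.10.9 were used.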

Additional observations from a re-analysis of the deposited data

How the results depend on the processing

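The count of 3 members at least 2-fold lower in IGR37 held under 8 of the 9 alternatives. It was 2 with the probe set of lowest mean, where SERPINE2 dropped below the minimum. The count of members at least 2-fold higher was 0 under all 9. The median difference of the members moved with the minimum: it was -1.47 over 5 members at a minimum of log2 5 and -0.079 over 7 members with none. Under the other alternatives it ran from -2.36 to -1.91, with PLAT left out where probe sets ending in _x_at or _s_at were removed. The difference of F3 ran from -4.84 to -4.63 over the alternatives, that of PLAUR from -3.07 to -2.13 and that of SERPINE2 from -1.66 to -1.30, and none changed direction. F3 has 1 probe set, so only the scalings could move its difference. By the probe sets used as reported, these genes lie above log2 7 in IGR39, so the alternative minimums could not change their calls. The differences of PLAU and THBD, which lay near 0, changed sign with the choice of probe set and with centring on housekeeping genes. The whole array gave 808 genes past the lower 2-fold limit and 973 past the upper one as reported, and 1055 and 733 after that centring. Averaging each gene's probe sets gave 503 lower and 588 higher, out of only 5878 genes above the minimum. The probe set of lowest mean gave 389 and 475, out of 4053. The reported counts are out of 8501, so the raw counts are not comparable between these settings. No paired analysis was possible because each line has 1 array. F3 and PLAUR were below the minimum in IGR37, A2M in IGR39, and PLAU, THBD and F2R in both lines, so their differences have no firm size. SERPINE2, by its brighter probe set, and PLAT were above it in both lines.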
